A study of Mus musculus with 4 samples.

Results

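The genes for ephrins, semaphorins and their receptors were examined in cell lines grown from mouse mammary tumors. Members were taken by gene symbol alone: Eph receptors of class A and B, ephrin-A and ephrin-B ligands, semaphorins of classes 3 to 7, plexins A to D and the neuropilins Nrp1 and Nrp2. This gave 53 genes of the 38713 with a usable value, 28 ligands and 25 receptors. RNA was sequenced from 4 lines, each derived from a tumor of its own and each giving 1 library. The JNK_WT lines (replicates 1 and 2, labelled p53-/-) came from parous Wap-Cre mice with floxed Trp53. The JNK_KO lines (replicates 1 and 3, labelled p53-/- JNK-/-) came from parous Wap-Cre mice in which Mapk8 and Mapk9, the genes for JNK1 and JNK2, were floxed together with Trp53. The strain is labelled C57BL/6, and both groups shared the Cre transgene and the loss of Trp53. The age of the mice at tumor harvest was not given in the sources used here. Wap-Cre acts in luminal cells of the lactating gland, and the lines were expanded in culture before RNA was isolated, so a line stands for 1 tumor under culture conditions.

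Eph receptors are receptor tyrosine kinases that bind ephrins on the surface of a neighbouring cell. Ephrin-A ligands are held in the membrane by a lipid anchor and ephrin-B ligands span it, and both can signal back into the cell that carries them. Semaphorins of class 3 are secreted and mostly bind neuropilins, which signal through a plexin partner, while classes 4 to 6 span the membrane and class 7 is lipid-anchored. Plexins carry a domain that switches off small GTPases of the Ras and Rap kind, through which they alter adhesion and the cytoskeleton. These molecules were first known for steering axons and blood vessels, and in the mammary gland Epha2 and the Ephb4 and Efnb2 pair take part in the growth of ducts.

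The deposited values were FPKM, the mapped fragments scaled to exon length and to the mapped fragments of the library, so that levels can be set side by side between genes. FPKM summed to between 775960 and 921595 in the 4 libraries. The reads were sampled toward a common depth, but no counts are given, so the number of mapped reads behind each value is unknown. The targeted genes Mapk8 and Mapk9 served as a check of the labels. Mapk8 was at 23.9 and 19.1 FPKM in the JNK_WT lines and at 4.30 and 4.27 FPKM in the JNK_KO lines, and Mapk9 was at 29.7 and 24.3 against 12.6 and 8.66 FPKM. Trp53, floxed in both groups, was at 1.55 and 4.15 against 5.72 and 4.28 FPKM, a log2 difference of 0.72 (limma adjusted p-value 0.886). Luminal markers were abundant in all lines, with Krt8 between 278 and 1045 FPKM. All 8 endothelial markers, among them Pecam1, Cdh5 and Kdr, were under 1 FPKM in every library, and so were 5 of the 7 leukocyte markers, Ptprc among them. Of the others, Cd68 was at 19.95 and 3.15 against 2.65 and 8.43 FPKM and Csf1r at 1.82 and 0.448 against 0.312 and 1.23 FPKM, and the leukocyte sum was 21.9 and 3.67 against 3.06 and 9.76. Of the 8 mesenchymal markers, Dcn was at 0.430 and 0.389 FPKM in the JNK_WT lines and at 79.7 and 162 FPKM in the JNK_KO lines, and Pdgfra at 0.325 and 0.183 against 24.7 and 7.82 FPKM. Vim, Col1a2 and Col3a1 had overlapping groups, with Col1a2 at 10.3 and 0.374 against 0.698 and 2.56 FPKM. The summed FPKM of the 7 luminal markers was 3857 and 2808 for JNK_WT (replicates 1 and 2), with 1174 and 2497 for JNK_KO (replicates 1 and 3). The groups thus did not overlap for the luminal sum, and they overlapped for the basal sum (26.1 and 734 against 38.3 and 376) and the mesenchymal sum (343 and 48.9 against 608 and 336). Among the luminal markers taken singly, only Krt8 and Epcam had groups that did not overlap.

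Most of the guidance RNA of these cells came from few genes. The 10 most abundant members held between 67.2% and 78.7% of the summed FPKM of all members, the least in JNK_WT replicate 2 and the most in JNK_KO replicate 1. A total of 19 members had a mean of at least 10 FPKM, 14 lay between 1 and 10 and 20 lay under 1. The summed FPKM of all members was nearly the same in each line, at 678 and 662 in JNK_WT cells and 679 and 679 in JNK_KO cells. Receptors made up 57.5% and 57.4% of it in the JNK_WT lines and 61.5% and 50.2% in the JNK_KO lines.

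The leading gene was Plxnb2, a receptor for class 4 semaphorins, at 99.2 and 90.2 FPKM in the JNK_WT lines and at 166 and 105 FPKM in the JNK_KO lines. It was the most abundant member in 3 of the 4 libraries and held 87.8% to 95.1% of the plexin B sum. In JNK_WT replicate 1 it came behind Epha2, which was at 141 FPKM there and held 71.7% to 89.9% of the EphA sum. The next in order of mean level were Sema3c, Ephb4, Sema3f, Nrp2, Efnb2, Plxna1, Efna1 and Sema4d. Their ranks crossed between lines, with Sema3c between rank 2 and 7 and Efnb2 between rank 4 and 11 of 53, so this order is not fixed beyond the spread between lines. RNA for receptors and for their known ligands was found together. Epha2 (51.0 to 141 FPKM) was found with Efna1 (15.6 to 38.1 FPKM), a ligand it is known to bind, and Ephb4 (26.6 to 78.3 FPKM) with its ligand Efnb2 (19.1 to 54.5 FPKM). Nrp2 (23.8 to 52.2 FPKM) and Plxna1 (21.3 to 28.1 FPKM) were found with Sema3c and Sema3f.

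The 20 members that did not pass the filter (FPKM of at least 1 in at least 2 libraries) were Efna2, Efnb3, Epha3, Epha5, Epha6, Epha7, Epha8, Epha10, Ephb1, Ephb2, Plxna2, Plxna4, Plxnb3, Plxnc1, Sema3d, Sema3g, Sema4g, Sema5b, Sema6b and Sema6d. In 4 of them 1 library reached 1 FPKM, the highest being Ephb2 at 2.27 FPKM in JNK_KO replicate 1 against 0.299 FPKM in JNK_KO replicate 3 and 0.713 and 0.0466 FPKM in the JNK_WT lines. A total of 5 were listed at 0 in at least 1 library. Plxnc1, a receptor for Sema7a, was listed at 0 in JNK_WT replicate 2 and JNK_KO replicate 3 and was at 0.0212 and 0.0354 FPKM in the other lines.

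**Figure D1:**
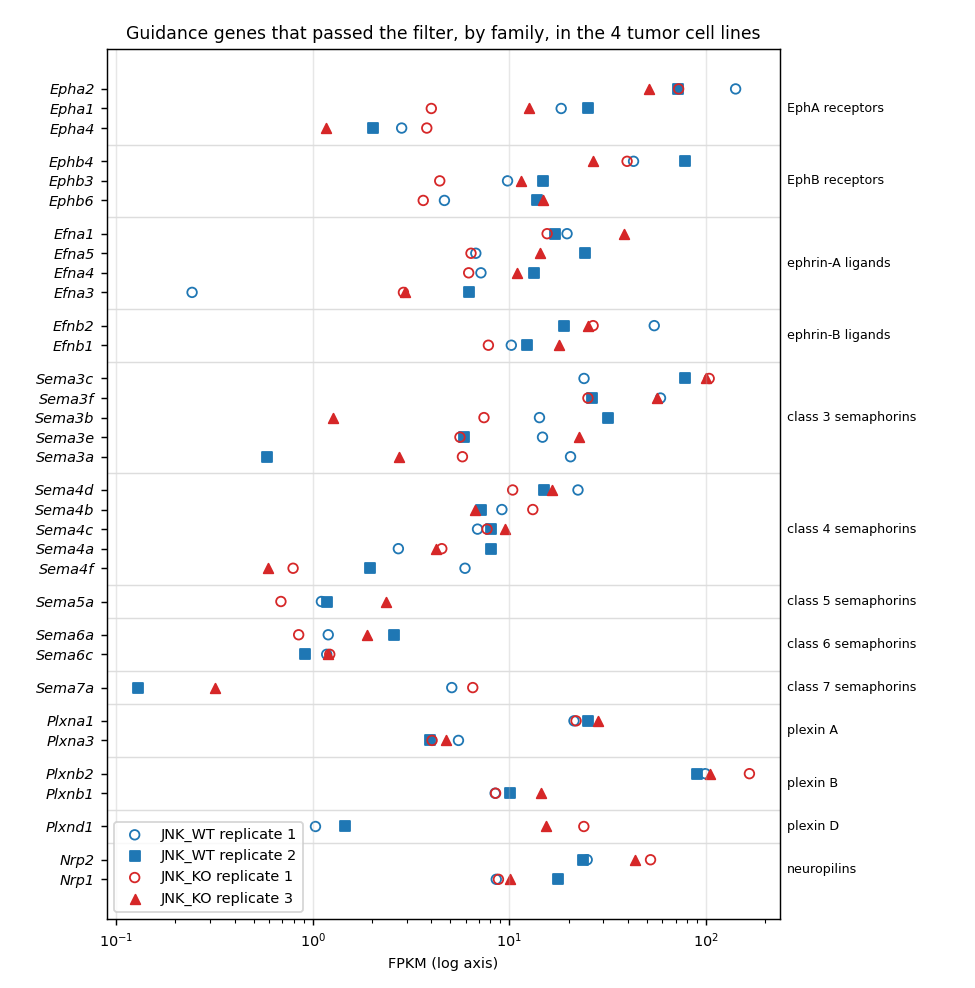
FPKM (log axis) of the 33 guidance genes that passed the filter, by family, with 1 point per tumor cell line (blue JNK_WT, red JNK_KO). Plxnb2, Epha2, Sema3c and Ephb4 lie highest on average, Plxnd1 separates the genotypes most, and Sema7a and Sema3a separate lines of the same genotype.

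To ask whether JNK loss altered these genes, JNK_KO and JNK_WT cells were compared on log2(FPKM + 1) with limma, fitted across all 12998 genes that passed the filter. A gene was called where the adjusted p-value was below 0.05 and the absolute log2 difference above 0.75, which held for 0 of the 33 tested members and for 0 of all tested genes (0%). The smallest limma adjusted p-value among members was 0.146. An unadjusted p-value under 0.05 was found for 4 members (12.1%), beside 992 of all genes tested (7.63%). Without regard to the test, 3 members were higher in JNK_KO cells by over 0.75 (9.25% of all tested genes were) and 4 were lower by over 0.75 (6.43% of all tested genes were). Both JNK_KO lines lay above both JNK_WT lines for 5 members, where 18.3% of all tested genes did, and below them for 4 members, where 16.7% did. The share of members without overlap was thus 27.3%, below the 35.0% over all tested genes. Sema4f, counted here and among the 4 with an unadjusted p-value under 0.05, passed the filter only through the JNK_WT lines. The median log2 difference of the members was -0.07 and that of all tested genes 0.01. With 2 lines against 2, an exact permutation test of a single value cannot give a p-value below 0.33, so none was run.

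The difference exceeded the gap between the lines of either genotype for 5 members (15.2%), namely Plxnd1, Nrp2, Sema3b, Sema4f and Epha1, and for 23.6% of all tested genes. For the other 28 members the spread between lines of 1 genotype was as large as the difference or larger.

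**Figure D2:**
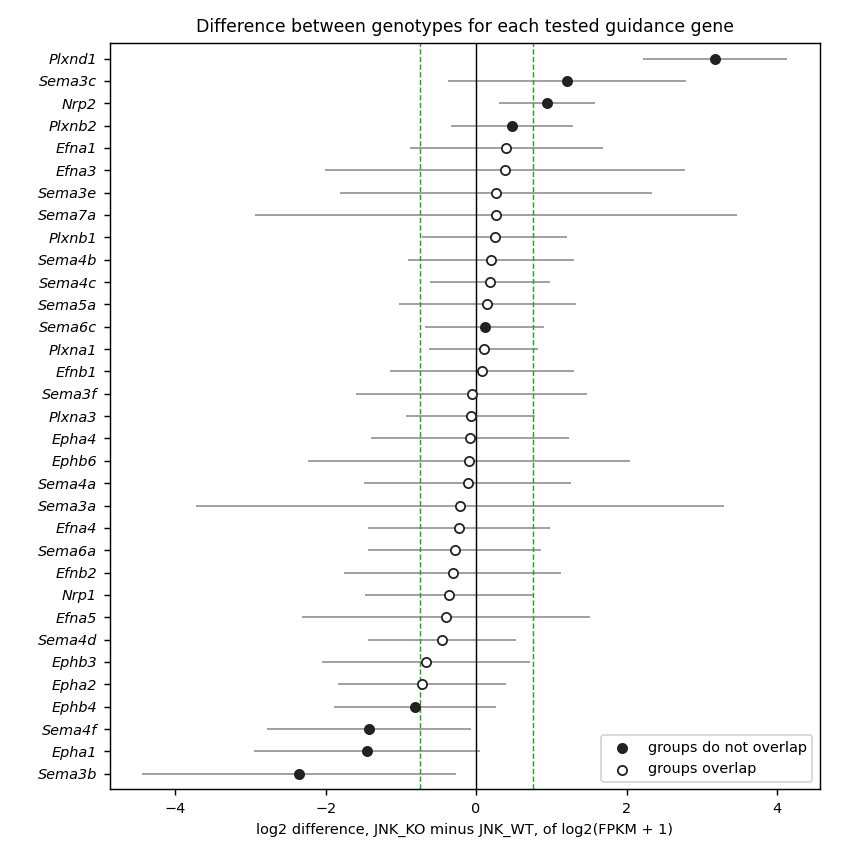
Log2 difference (JNK_KO minus JNK_WT, of log2(FPKM + 1)) of each of the 33 tested members, as points with 95% confidence intervals from limma. Filled points mark the 9 members whose groups do not overlap, dashed lines mark 0.75 in either direction, and the intervals of Plxnd1, Nrp2, Sema3b and Sema4f leave out 0 before adjustment for the number of genes.

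Among plexins and neuropilins, Plxnd1, Nrp2 and Plxnb2 were higher in both JNK_KO lines. Plxnd1, the receptor that binds Sema3e without a neuropilin and is known from vessel patterning, had 1.03 and 1.45 FPKM in the JNK_WT lines (replicates 1 and 2 in order, as throughout) and 23.9 and 15.4 FPKM in the JNK_KO lines (replicates 1 and 3). Both JNK_KO lines were far above both JNK_WT lines, and the ratio of the means was 15.8. On the log2 scale it differed by 3.18 (SE 0.36, 95% confidence interval 2.22 to 4.14), and the limma adjusted p-value of 0.146 left it uncalled over all genes. In bulk RNA, fewer cells of a type and less RNA per cell cannot be told apart, here and for all members. Fits without 1 line gave 2.88 to 3.48. The 8 endothelial markers were under 1 FPKM in each of these libraries. Of the 8 mesenchymal markers, Dcn, Pdgfra and Pdgfrb were likewise above both JNK_WT lines in both JNK_KO lines, with Pdgfrb at 0.0404 and 0.194 against 2.17 and 2.99 FPKM. Vim, Col1a2 and Col3a1 overlapped between the groups, and the log2 difference of Col1a2 was -0.68. Col1a1 and Lum were under 1 FPKM in all libraries, and the part of these markers in the Plxnd1 values was not tested.

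Plxnd1 lies on chromosome 6 (mm10, 115954811 to 115995005, minus strand), where the 628 tested genes had a median log2 difference of -0.59. Relative to all tested genes, the median of that chromosome was 0.36 and 0.27 in the JNK_WT lines and -0.33 and -0.23 in the JNK_KO lines. Plxnd1 therefore differed in the direction opposite to its chromosome, and its difference minus the chromosome median was 3.77. Among the other members on chromosome 6, Plxna1 was at 21.3 and 25.0 FPKM in the JNK_WT lines and at 21.8 and 28.1 FPKM in the JNK_KO lines, a log2 difference of 0.10 (95% confidence interval -0.62 to 0.82). Sema4f and Epha1 were lower in JNK_KO cells with log2 differences of -1.42 and -1.45, which became -0.83 and -0.86 after the chromosome median was taken off. Whether gene dosage has a part in these values was not tested.

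Nrp2, a co-receptor for Sema3c, Sema3f and Vegfc, was at 24.9 and 23.8 FPKM in the JNK_WT lines and at 52.2 and 43.4 FPKM in the JNK_KO lines. The lines of each genotype lay close together and the groups did not overlap. Nrp2 differed by 0.94 on the log2 scale (SE 0.24, 95% confidence interval 0.30 to 1.58, limma adjusted p-value 0.449), which stayed between 0.81 and 1.07 in fits without 1 line. Nrp1, which favours Sema3a, was at 8.58 and 17.6 FPKM in the JNK_WT lines and at 8.80 and 10.02 FPKM in the JNK_KO lines, and its groups overlapped. Plxnb2 was higher in both JNK_KO lines, with a log2 difference of 0.48 (95% confidence interval -0.33 to 1.29) that was 0.15 without JNK_KO replicate 1. Plxnb1, a receptor for Sema4d, was at 8.47 and 10.1 FPKM against 8.51 and 14.4 FPKM, and Plxna3 was at 5.51 and 3.96 against 4.04 and 4.77 FPKM. Groups overlapped for both.

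The sequences upstream of a few members are shown because JNK acts on transcription factors of the AP1 and ATF kind. Plxnd1, Nrp2 and Sema4f were taken as the members with an unadjusted p-value under 0.05 and a window, and Epha2 as the single member with the letters TGACGTCA, a search added after the values were seen. The 250 bases before the RefSeq start (GRCm38.p6) are given 5' to 3' on the strand of the gene, with the letters TGACGTCA, a site known to bind ATF and JUN dimers, in capitals where a window holds them. The windows are chr6:115995006-115995255 (minus strand) for Plxnd1, chr1:62703067-62703316 (plus strand) for Nrp2, chr6:82939770-82940019 (minus strand) for Sema4f and chr4:141300971-141301220 (plus strand) for Epha2.
Plxnd1: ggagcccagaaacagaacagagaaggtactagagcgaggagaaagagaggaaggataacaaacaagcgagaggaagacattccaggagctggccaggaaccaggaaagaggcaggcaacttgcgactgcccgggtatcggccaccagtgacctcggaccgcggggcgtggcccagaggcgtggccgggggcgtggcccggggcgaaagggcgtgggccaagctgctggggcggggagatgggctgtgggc
Nrp2: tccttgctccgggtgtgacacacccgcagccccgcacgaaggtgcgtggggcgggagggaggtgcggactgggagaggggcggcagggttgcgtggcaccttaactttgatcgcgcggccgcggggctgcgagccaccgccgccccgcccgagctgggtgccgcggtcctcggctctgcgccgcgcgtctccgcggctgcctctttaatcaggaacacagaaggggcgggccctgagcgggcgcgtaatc
Sema4f: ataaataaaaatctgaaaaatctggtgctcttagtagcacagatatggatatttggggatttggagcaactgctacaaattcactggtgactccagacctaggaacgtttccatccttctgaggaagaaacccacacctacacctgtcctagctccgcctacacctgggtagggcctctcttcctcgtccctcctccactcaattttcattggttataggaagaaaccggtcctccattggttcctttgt
Epha2: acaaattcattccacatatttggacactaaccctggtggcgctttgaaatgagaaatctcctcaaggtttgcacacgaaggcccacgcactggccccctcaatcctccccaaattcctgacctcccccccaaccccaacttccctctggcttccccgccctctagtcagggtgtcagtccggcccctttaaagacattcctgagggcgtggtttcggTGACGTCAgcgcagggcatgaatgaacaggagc
A window was found for 47 of the 53 members. Windows were searched on both strands for TGANTCA, which covers the AP1 site TGACTCA or TGAGTCA but allows any middle base, and for TGACGTCA. TGANTCA was present for 3 members (6.38%), Sema4c, Sema4d and Sema6b, beside 7.82% of all 27025 genes with a window. The match in Sema4d was TGAATCA, which is not the AP1 site, and the share over all genes counts such matches too. TGACGTCA was present for 1 member, Epha2 (2.13%), beside 1.77% of all genes. Neither was found in the windows of Plxnd1, Nrp2 or Sema4f. Of the members with TGANTCA, Sema4c and Sema4d had overlapping groups and Sema6b did not pass the filter.

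Semaphorins without overlap between genotypes lay on both sides, Sema3b and Sema4f lower and Sema3c and Sema6c higher in JNK_KO cells. Sema3b, a secreted semaphorin described as a tumor suppressor, was at 14.2 and 31.8 FPKM in the JNK_WT lines and at 7.43 and 1.26 FPKM in the JNK_KO lines. Both JNK_KO lines lay below both JNK_WT lines, although the JNK_KO lines themselves differed by 1.90 on the log2 scale. Its log2 difference of -2.36 (SE 0.78, 95% confidence interval -4.44 to -0.27) had a limma adjusted p-value of 0.576. This difference was -1.41 without JNK_KO replicate 3 and -3.31 without JNK_KO replicate 1.

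Sema4f, a transmembrane semaphorin, was at 5.95 and 1.95 FPKM in the JNK_WT lines and at 0.794 and 0.595 FPKM in the JNK_KO lines. The JNK_KO lines were both under 1 FPKM and the JNK_WT lines both above it. Sema4f thus passed the filter only through the JNK_WT lines, where it was high. Sema4f had a log2 difference of -1.42 (SE 0.51, limma adjusted p-value 0.634), and without JNK_WT replicate 1 it was -0.80.

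Sema3c, a ligand of neuropilins and of Plxnd1, had the highest mean of the semaphorins, although Sema3f was above it in JNK_WT replicate 1. Sema3c was at 24.0 and 78.3 FPKM in the JNK_WT lines and at 104 and 99.96 FPKM in the JNK_KO lines. The JNK_KO lines were nearly equal and above both JNK_WT lines, of which replicate 1 was far below the rest. The log2 difference was 1.21 (SE 0.60, limma adjusted p-value 0.791), and it was 0.38 without JNK_WT replicate 1. Its receptors Plxnd1 and Nrp2 were likewise above both JNK_WT lines in both JNK_KO lines. Sema3e, the ligand most closely tied to Plxnd1, had overlapping groups, at 14.7 and 5.88 FPKM in the JNK_WT lines and at 5.605 and 22.7 FPKM in the JNK_KO lines. Sema3f, which prefers Nrp2, was at 58.7 and 26.3 FPKM against 25.1 and 56.4 FPKM, so that each genotype held a high and a low line.

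Among the remaining semaphorins, Sema4d, the ligand of Plxnb1, was at 22.3 and 15.1 FPKM in the JNK_WT lines and at 10.4 and 16.5 FPKM in the JNK_KO lines. Sema4b was at 9.16 and 7.17 against 13.2 and 6.68 FPKM, and Sema4c and Sema4a lay between 2.73 and 9.55 FPKM in all libraries. Groups overlapped for each of these class 4 members. Sema6c was slightly higher in both JNK_KO lines (1.18 and 0.911 against 1.22 and 1.20 FPKM), with a log2 difference of 0.11, which turned to -0.15 under quantile normalization. Sema5a was at 1.11 and 1.18 against 0.689 and 2.35 FPKM and Sema6a at 1.20 and 2.59 against 0.848 and 1.88 FPKM, and groups overlapped for both.

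None of the 6 tested Eph receptors was called. The log2 difference was below 0 for Epha1, Ephb4, Epha2 and Ephb3, from -1.45 to -0.67, and 6318 of the 12998 tested genes were below 0. Epha4 and Ephb6 had log2 differences of -0.08 and -0.10, with ratios of the FPKM means of 1.023 and 1.001, and Ephb6 turned to 0.49 after the chromosome median was taken off. Epha1, an early diverged member of the EphA class, was at 18.3 and 25.2 FPKM in the JNK_WT lines and at 4.01 and 12.5 FPKM in the JNK_KO lines. Groups did not overlap, and the JNK_KO lines differed by 1.43 on the log2 scale. The log2 difference was -1.45 (SE 0.56, limma adjusted p-value 0.665) and was -0.73 without JNK_KO replicate 1. A stretch of 6.01% of the exon bases of Epha1 (chromosome 6, 42358487 to 42373268, minus strand) is shared with Zyx on the opposite strand, and counting was not stated to use strand. Larger shares overlap annotated genes on the opposite strand in Efna3 (14.13%), Plxna1 (10.71%), Efna4 (10.51%) and Sema4c (7.27%).

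Ephb4, the receptor of Efnb2, was at 42.8 and 78.3 FPKM in the JNK_WT lines and at 39.7 and 26.6 FPKM in the JNK_KO lines. The groups did not overlap, but JNK_WT replicate 1 and JNK_KO replicate 1 were close. The log2 difference was -0.82 (SE 0.40, limma adjusted p-value 0.794), and it was -0.39 without JNK_WT replicate 2. Epha2 was at 141 and 71.8 FPKM against 72.5 and 51.0 FPKM, a log2 difference of -0.72 (SE 0.42), and JNK_KO replicate 1 lay just above JNK_WT replicate 2. Without JNK_WT replicate 1 this difference was -0.24. Ephb3 was at 9.79 and 14.9 FPKM against 4.42 and 11.5 FPKM, and Epha4 at 2.83 and 2.03 against 3.80 and 1.17 FPKM. Groups overlapped for both, as they did for Ephb6, which lacks kinase activity. The luminal marker sum was also lower in both JNK_KO lines, most in replicate 1. Of its markers, Krt8 and Epcam were lower in both JNK_KO lines, while groups overlapped for Krt18, Krt19, Cdh1, Cldn3 and Cldn4. The part of this sum in the Eph receptor values was not tested.

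Groups overlapped for each of the 6 tested ephrin ligands. Efna1 was at 19.6 and 17.0 FPKM in the JNK_WT lines and at 15.6 and 38.1 FPKM in the JNK_KO lines. Efnb2 was at 54.5 and 19.1 FPKM in the JNK_WT lines and at 26.7 and 25.2 FPKM in the JNK_KO lines, so that the JNK_KO lines lay between the JNK_WT lines. Efnb1 was at 10.2 and 12.3 FPKM against 7.82 and 17.9 FPKM. Their log2 differences lay between -0.40 for Efna5 and 0.40 for Efna1, with confidence intervals that all held 0. These intervals were wide, from -1.75 to 1.13 for Efnb2 and from -2.32 to 1.52 for Efna5.

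Summed over families, 7 of 14 had groups that did not overlap, with 4 higher and 3 lower in JNK_KO cells. No matching share was computed for sums of other genes, and of single tested genes 35.0% did not overlap, so this count is descriptive only. The EphA sum was 163 and 100.2 FPKM in the JNK_WT lines and at 80.7 and 65.2 FPKM in the JNK_KO lines, and the EphB sum was 58.0 and 107 against 50.0 and 53.3 FPKM. The class 4 semaphorin sum was also lower, at 47.5 and 40.5 against 37.0 and 37.8 FPKM. The neuropilin sum was higher, at 33.4 and 41.4 against 61.0 and 53.4 FPKM, as were the plexin B sum at 108 and 100.4 against 175 and 120 FPKM and the class 3 semaphorin sum at 132 and 143 against 148 and 184 FPKM. The fourth family that was higher was plexin D, whose single member is Plxnd1. Since 1 member leads most of these sums, they repeat the values of Epha2, Ephb4, Nrp2 and Plxnb2 more than they add to them, and no test was run on them.

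**Figure D3:**
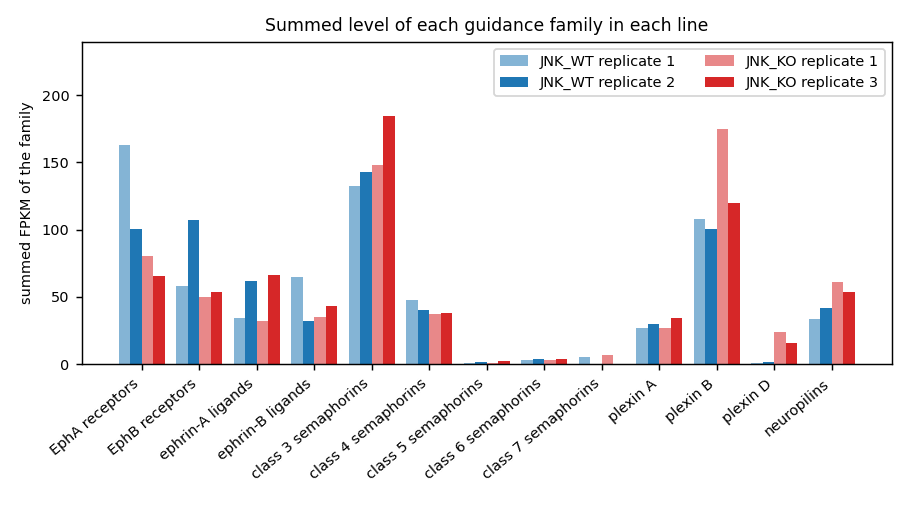
Summed FPKM of each guidance family in each line (blue JNK_WT, red JNK_KO, 1 bar per library), for the 13 families whose group means add up to over 1 FPKM. The EphA bars are lower and the plexin B, plexin D and neuropilin bars higher in both JNK_KO lines than in either JNK_WT line.

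Lines of the same genotype differed in many of these genes. The gap between the JNK_WT lines was over 1 on the log2 scale for 12 of 33 members and that between the JNK_KO lines for 11, and 17 members had such a gap in at least 1 genotype. The median gap was 0.71 and 0.66 among members, beside 0.43 and 0.33 over all tested genes. For ligands alone it was 1.12 in JNK_WT and 0.79 in JNK_KO cells, and for receptors 0.39 and 0.60.

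Sema7a showed the same gap in both genotypes. This lipid-anchored semaphorin, which signals through integrins, was at 5.09 and 6.51 FPKM in replicate 1 of JNK_WT and JNK_KO and at 0.129 and 0.318 FPKM in JNK_WT replicate 2 and JNK_KO replicate 3. Sema3a, the classical repellent for axons, was at 20.5 and 0.588 FPKM in the JNK_WT lines and at 5.77 and 2.76 FPKM in the JNK_KO lines. Ephb6 ran the other way, at 4.67 and 3.65 FPKM in replicate 1 of both genotypes and at 13.9 and 14.9 FPKM in the remaining lines, and so did Efna5, at 6.75 and 6.38 against 24.4 and 14.3 FPKM. The basal keratin Krt14 was at 7.34 and 26.7 FPKM in the former lines and at 443 and 313 FPKM in the latter, and its relation to these genes was not tested. Krt17, Trp63, Krt5 and Cnn1 were also higher in both latter lines, while Acta2, Myh11 and Oxtr did not share this split. Between the JNK_KO lines (replicates 1 and 3) the values were low for Krt5 (0.110 and 0.205 FPKM) and nearly equal for Cnn1 (0.423 and 0.438 FPKM). Krt5 and Cnn1 were above 1 FPKM in JNK_WT replicate 2 only, and Myh11 and Oxtr in no library. Acta2 was at 7.36 and 3.19 FPKM in the JNK_WT lines and at 1.70 and 29.0 FPKM in the JNK_KO lines. A further 3 members with gaps over 1 in both genotypes, Sema3b, Sema3e and Sema3f, differed in opposite directions in JNK_WT and JNK_KO cells. Efna3 set JNK_WT replicate 1 apart from all other lines, at 0.243 FPKM against 2.89 to 6.24 FPKM.

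**Figure D4:**
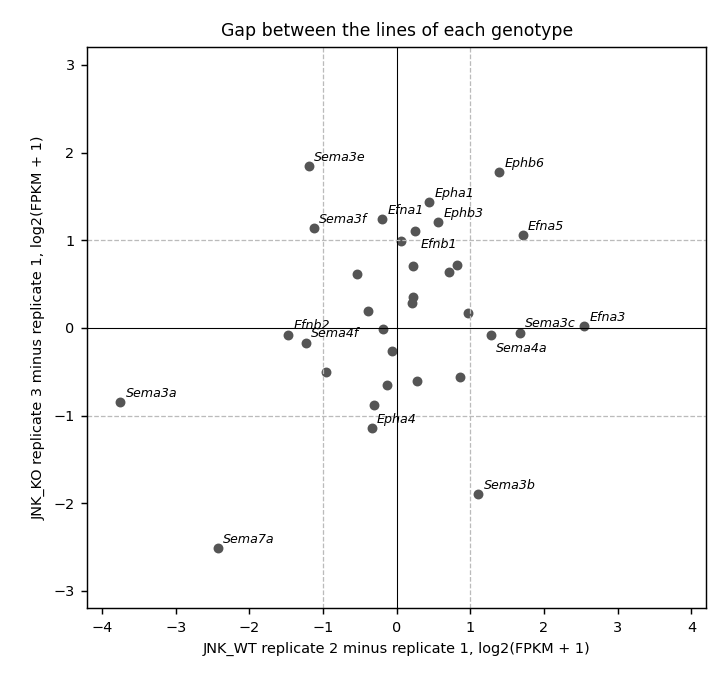
Difference in log2(FPKM + 1) between the lines of each genotype for the 33 tested members, JNK_WT replicate 2 minus 1 on the horizontal and JNK_KO replicate 3 minus 1 on the vertical axis, with members over 1 in either named. Sema7a lies far below 0 on both axes (-2.43 and -2.51), Ephb6 and Efna5 above 1 on both, and Nrp2 and Plxnd1 (unlabelled) within 1 of 0 on both.

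Other genes of guidance signaling were read from a fixed list. Of 58 effectors and partners of Eph receptors, plexins and neuropilins, 47 passed the filter and none was called, while 5 were higher and 3 lower in JNK_KO cells by over 0.75 (9.25% and 6.43% of all tested genes). Groups did not overlap in 19 (40.4%), beside 35.0% of all tested genes, and 3 had an unadjusted p-value under 0.05 (6.38%, beside 7.63%). The median log2 difference was 0.03, near the 0.01 of all tested genes. The largest was that of Dpysl3, a member of the collapsin response mediators that act below semaphorins, at 0.546 and 2.11 FPKM in the JNK_WT lines and at 45.5 and 23.4 FPKM in the JNK_KO lines (log2 difference 3.94, SE 0.54, limma adjusted p-value 0.191). Both JNK_KO lines lay far above both JNK_WT lines. Pgf, a growth factor of the VEGF family that binds Nrp1, was lower, at 22.6 and 6.46 against 2.06 and 1.99 FPKM, a log2 difference of -2.13 (SE 0.63).

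Of 20 genes of the netrin, Slit and RGM families and their receptors, 10 passed the filter and 0 were called by limma, while 4 had an unadjusted p-value under 0.05 (7.63% of all tested genes did). In 7 (70.0%, beside 35.0% of all tested genes) the genotypes were apart (5 with JNK_KO above, 2 with JNK_KO below), and the median log2 difference was 0.90. Robo2 and Ntng2 reached 1 FPKM in the JNK_KO lines only, so they passed the filter through the group where they were high. Both are among the 5 above and the 4 with an unadjusted p-value under 0.05, so these counts and the median lean on them. Ntn1, the secreted netrin, was at 1.16 and 1.38 FPKM in the JNK_WT lines and at 17.9 and 76.9 FPKM in the JNK_KO lines, a log2 difference of 4.08 (SE 0.74). Robo2 and Robo1, receptors for Slit ligands, were at 0.118 and 0.329 against 5.87 and 5.86 FPKM and at 0.111 and 2.38 against 8.51 and 3.82 FPKM. All of these groups were apart, and the limma adjusted p-values were 0.281 for Ntn1, 0.176 for Robo2 and 0.663 for Robo1.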

How the data were processed

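RNA from 4 mouse mammary tumor cell lines was sequenced (JNK_WT, n = 2 and JNK_KO, n = 2). The authors trimmed single-end reads, sampled them toward a common depth, aligned them to mm10 with TopHat2 2.0.14 and Bowtie2 and deposited FPKM per gene from Cufflinks 2.2.1, without pooling (versions from the submitters' processing notes). Any further scaling between libraries, the gene annotation and use of strand were not given in the sources used here. The table held 38741 rows, of which 27 with date-like symbols and 1 without a value were left out. Efna5 is 1 of 126 rows written with more than 6 significant digits, so its value may combine several entries. Positions came from GENCODE M21 (GRCm38, the assembly of mm10) and upstream sequences from RefSeq (GRCm38.p6). Arhgap35 and Adgre1 were read under older symbols.

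Genes with at least 1 FPKM in at least 2 libraries were tested on log2(FPKM + 1) with limma 3.58.1 (intensity trend, two-sided, Benjamini-Hochberg over all genes tested) in R 4.3.3, since Cuffdiff, which the study used, needs the alignments. A log2 difference on this scale understates the change of low genes. The fit was tested on simulated data. The labels number each line as a tumor of its own but do not state whether the tumors of a group came from different mice. The p-values therefore measure the spread between these lines only. Values in every library are given for the 2 members with the highest mean in each family, the members without overlap that differ most (at most 12), the 6 with the largest gap within a genotype, and the 5 other pathway genes that differ most. Low members of the first kind (Sema5b) are given only in counts, and members named beyond this rule were chosen after their values were seen. The members and lists were chosen with earlier results of these data known. Other pseudocounts, filters, scalings, variance models and thresholds were tried, and each line was left out in turn. Figures were drawn with matplotlib 3.10.9.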

Additional observations from a re-analysis of the deposited data

How the results depend on the processing

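No paired analysis was run, because each line came from a tumor of its own and the replicate numbers pair no lines across genotypes. None of the members was called by limma under any of the 14 alternatives. In the settings that kept all lines, 3 to 5 of them had an unadjusted limma p-value under 0.05. This was 3 of 53 members without a filter, beside 2037 of all 38713 genes. It was 4 of 24 with a mean of at least 5 FPKM, beside 678 of 10019, and 5 of 33 under quantile normalization, beside 1006 of 12998. The count of all genes called was 0 in the main fit, where 992 had an unadjusted limma p-value under 0.05. It was 10 (pseudocount 0.1), 14 (pseudocount 0.5), 14 (constant prior variance in place of the trend) and 25 (adjusted p under 0.1). The 7 members over 0.75 were 5 to 8 under the other settings with all lines and 11 to 14 without 1 line, where means rest on fewer libraries. The 9 members without overlap became 18 without a filter on low values, which adds 20 genes, each with a mean under 1 FPKM. The share of all genes without overlap in that setting was not computed. The 7 families without overlap were 9 to 12 without 1 line, where fewer libraries make overlap less likely, the highest without JNK_KO replicate 3. Of 29 members tested across settings, 11 kept their direction in all of them, among them all members without overlap except Sema6c. Where groups do not overlap, leaving out 1 line or changing the pseudocount or filter cannot reverse the direction. For those members only the scalings and the chromosome median could have reversed it. With all lines, the direction reversed for Efnb1 (-0.10), Ephb6 (0.49) and Sema6c (-0.0040) after the chromosome median was taken off, for Sema5a (-0.12), Sema6c (-0.15) and Sema7a (-0.017) under quantile normalization and for Sema3a (0.12) with a pseudocount of 0.1. The cause was not tested. Without 1 line, directions reversed with ranges of -0.22 to 1.02 for Efna1, -0.88 to 1.66 for Efna3, -1.25 to 0.46 for Efna5, -0.47 to 0.63 for Efnb1, -1.05 to 0.42 for Efnb2, -0.98 to 0.79 for Ephb6, -0.84 to 0.12 for Nrp1, -0.076 to 0.27 for Plxna1, -0.27 to 0.12 for Plxna3, -0.11 to 0.59 for Plxnb1, -2.09 to 1.67 for Sema3a, -0.66 to 1.19 for Sema3e, -0.63 to 0.51 for Sema3f, -0.25 to 0.64 for Sema4b, -0.34 to 0.64 for Sema5a, -0.64 to 0.069 for Sema6a and -0.99 to 1.52 for Sema7a. Reads were sampled toward a common depth, but the mapped reads of each library and gene are unknown, so the precision of members near 1 FPKM could not be set.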
